A study of Mus musculus with 98 samples.

Results

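Cdx2, Eomes, Elf5, Tfap2c, Gata3, Tead4 and Hand1, all transcription factors of the trophectoderm lineage, and Krt8, Krt18 and Krt19, keratins of simple epithelia, were followed through every count table of a study of mouse TBLC (totipotent blastomere-like cells) and their derivatives. The 10 genes were chosen by name and found by symbol. Each occurred once in each of the 9 tables, which list 21812 symbols.

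The trophectoderm is the outer epithelium of the blastocyst and gives rise to the trophoblast of the placenta, while the inner cell mass separates into epiblast and primitive endoderm. In the mouse embryo TEAD4 acts with the Hippo pathway coactivators YAP1 and WWTR1 to turn on Cdx2 and Gata3 in outer cells, and CDX2, EOMES, ELF5 and TFAP2C maintain trophoblast stem cells. KRT8 and KRT18 pair into the first intermediate filaments of the mouse embryo, and these filaments are found in trophectoderm and later also in endodermal epithelia, so these keratins do not mark trophectoderm alone.

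Total RNA was sequenced from mouse cell cultures, and each group used here had 2 libraries. PrE-T and EPI-T are the CD140+ and CD140- cells sorted after TBLC had spent 3 days in a medium labelled SLM, and TBLC are cells kept in a medium labelled 2MYCP. Unsorted cells after 3 days in SLM (diffTBLC) and TBLC were sampled 0, 1, 2 and 3 h after actinomycin D, an inhibitor of transcription, and so were cells after 8 h in SLM (TBLC_PlaB-) and their 2MYCP controls (TBLC_Ctrl). The remaining groups were all diffTBLC: cells given siMettl3 or siVirma against the control siRNA siNC, actinomycin D courses of siVirma against siNC1 and of siIgf2bp3 against siNC2, and RNA immunoprecipitates made with anti-IGF2BP3 or anti-YTHDF2 against their inputs. METTL3 and VIRMA belong to the complex that writes N6-methyladenosine (m6A) in RNA, and IGF2BP3 and YTHDF2 bind RNA carrying it. A further pair of cultures in 2MYCP, TBLC2, stands in a table of its own. No label says that replicates came from separate cultures, so the p-values measure the spread between these libraries, which may be technical.

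Library totals ran between 2483808 and 29471283 counts. Levels are given as CPM, counts scaled to library size, with TMM scaling within a table, and differences as log2 fold changes ± SE from edgeR's quasi-likelihood test with Benjamini-Hochberg adjustment over all genes tested in that table; a gene was called at an adjusted p under 0.05. CPM are not divided by transcript length, so levels of different genes were not ranked against each other. How often groups lacked overlap over all genes was not counted, so a lack of overlap only describes the libraries named. Several libraries stood apart or went against their labels. Between 0 and 1 h of actinomycin D the median absolute log2 step over all genes was 0.42 in siNC1 and 0.51 in siNC2, against 0.10 to 0.18 in the other 6 arms. Between 1 and 2 h it was 0.28 in siNC1 and 0.32 in siNC2, against 0.11 to 0.17 in the other 6 arms. Between 2 and 3 h it was 0.29 in siIgf2bp3 and 0.22 in siNC2. A step does not say which of its times stood apart. Igf2bp3 itself was 0.56 ± 0.079 log2 higher in the libraries labelled siIgf2bp3 than in siNC2 at 0 h and 0.58 lower over 1 to 3 h (log2 -0.58 ± 0.041). Virma was lower in siVirma in each comparison (log2 -0.50 ± 0.085 without actinomycin D, -0.27 ± 0.061 at 0 h and -1.04 ± 0.035 over 1 to 3 h), and Mettl3 in the libraries labelled siMettl3 differed from siNC by -0.18 ± 0.15 (adjusted p = 0.771). Under the siIgf2bp3 label Virma gave 0.48 ± 0.065 at 0 h and -0.51 ± 0.036 over 1 to 3 h. With siVirma, Igf2bp3 gave 0.07 ± 0.090 at 0 h and -0.77 ± 0.046 over 1 to 3 h. The drops over 1 to 3 h were thus not confined to the targeted gene.

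Of the trophectoderm factors, Tead4 and Eomes were read in every library, while Elf5 was at or near the limit of detection and Cdx2, Hand1 and Gata3 had few counts. Elf5 had between 0 and 7 counts per library and passed the low-count filter in no table, so it was never tested. Cdx2 stayed at or below 3.52 CPM in every library, Hand1 at or below 3.55 CPM and Gata3 at or below 5.36 CPM. Hand1 fell under the filter in the tables of siRNA cultures without actinomycin D and of TBLC_PlaB-, Gata3 in both siRNA actinomycin D tables and the YTHDF2 table, and Cdx2 in both immunoprecipitation tables. Gata3, Eomes and Hand1 overlap other annotated genes in the older mouse build GRCm38.p6 and the use of strand in counting is not stated, so part of their counts may belong to the partner gene; how reads shared between keratin copies were treated is not stated either.

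Krt8 and Krt18 neighbour each other on mouse chromosome 15 with no other protein-coding gene between them in GRCm38.p6, and their promoters are shown because both keratins rose together in PrE-T and diffTBLC. Each window covers 250 bases before and 50 after the annotated start (RefSeq, GRCm38.p6), Krt8 at chr15:102004293-102004592 on the minus strand and Krt18 at chr15:102027966-102028265 on the plus strand, written 5′ to 3′ along the gene with motif matches in capitals.
Krt8: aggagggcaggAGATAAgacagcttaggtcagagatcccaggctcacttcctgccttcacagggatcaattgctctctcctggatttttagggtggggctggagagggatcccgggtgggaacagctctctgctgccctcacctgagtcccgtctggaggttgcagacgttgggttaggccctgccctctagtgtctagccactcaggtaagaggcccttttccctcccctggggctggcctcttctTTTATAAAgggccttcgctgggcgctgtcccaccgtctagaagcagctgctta
Krt18: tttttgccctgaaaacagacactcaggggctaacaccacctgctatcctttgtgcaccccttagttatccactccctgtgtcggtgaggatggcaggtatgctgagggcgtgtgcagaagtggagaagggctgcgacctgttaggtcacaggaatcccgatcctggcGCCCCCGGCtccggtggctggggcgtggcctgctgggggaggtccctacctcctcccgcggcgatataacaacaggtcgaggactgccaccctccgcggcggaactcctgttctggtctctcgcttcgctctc
The motifs below were searched on both strands. The Krt8 window held the GATA letters AGATAA, present in 11.2% of 32851 promoter windows, and the TATA letters TATAAA, present in 13.6%, the TATA match lying on both strands with the matches overlapping. The TATA matches began at bases -3 and -1 from the annotated start and ran across it. The Krt18 window held the AP-2 letters GCCNNNGGC, present in 16.6%. The TEAD letters GGAATG (14.7%), the GC box GGGCGG (35.7%) and the AP-1 letters TGANTCA (7.8%) were in neither window. A match describes the letters only.

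In the sorted cells, PrE-T had far more Krt8 and Krt18 than EPI-T and also more than TBLC, and more Tead4 and Eomes than both. Against EPI-T, PrE-T had 22.0-fold more Krt8 and 8.21-fold more Krt18, and Eomes was 3.50-fold and Tead4 2.74-fold higher. Of the 9 members tested in PrE-T against EPI-T, 7 rose and 0 fell, while 68.6% of all genes tested were called, 35.8% higher and 32.8% lower. The members' median was 1.81 on the log2 scale, against 0.03 over all genes. In these bulk libraries, fewer cells of a type and less RNA per cell cannot be told apart.

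**Figure D1:**
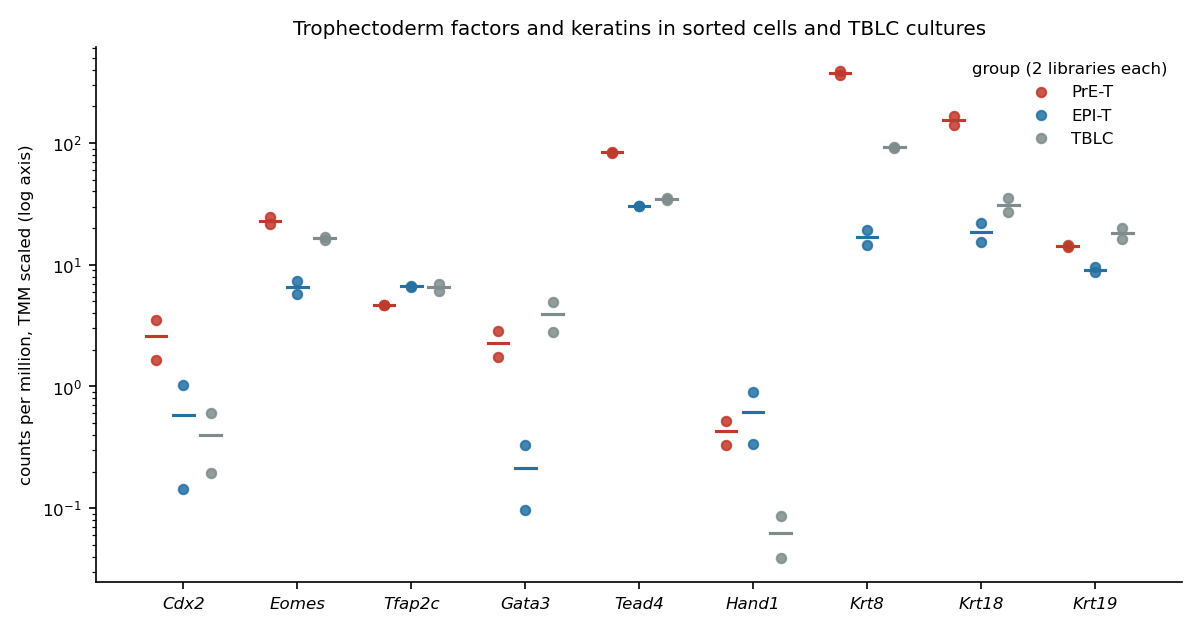
Levels of 9 members (Elf5 is not drawn) in the 2 libraries each of PrE-T, EPI-T and TBLC, in CPM with TMM scaling on a log axis; points are libraries and bars are group means. Krt8, Krt18, Tead4, Eomes and Cdx2 are highest in PrE-T, whereas Gata3 and Krt19 have their highest means in TBLC.

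Eomes, a T-box factor needed for trophoblast stem cells, had 24.5 and 21.6 CPM in PrE-T, against 5.80 and 7.38 CPM in EPI-T and 17.0 and 15.9 CPM in TBLC. Its 3 groups did not overlap. It rose by 1.81 ± 0.16 log2 in PrE-T against EPI-T (adjusted p = 2.5e-08) and by 0.48 ± 0.15 in PrE-T against TBLC (adjusted p = 0.0095), and it fell by 1.33 in EPI-T against TBLC (log2 -1.33 ± 0.16). The difference between PrE-T and TBLC passed by a small margin: with library totals in place of TMM it was 0.15 (adjusted p = 0.381), and it was lost without PrE-T replicate 1 or TBLC replicate 2 (adjusted p = 0.0873 and 0.0557).

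Tead4, the TEA-domain partner of YAP1, had 83.1 and 84.6 CPM in PrE-T, against 30.6 and 30.4 CPM in EPI-T and 33.9 and 35.3 CPM in TBLC. PrE-T lay above both other groups, which were close to each other. The log2 change was 1.45 ± 0.086 in PrE-T against EPI-T (adjusted p = 1.06e-10) and 1.27 ± 0.085 in PrE-T against TBLC (adjusted p = 7.49e-10). EPI-T against TBLC gave -0.19 ± 0.088 (adjusted p = 0.0738; with library totals -0.40 and 0.000769).

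Gata3, a zinc finger factor of trophectoderm, had 2.84 and 1.74 CPM in PrE-T, against 0.329 and 0.0958 CPM in EPI-T and 4.98 and 2.82 CPM in TBLC. EPI-T was the low group, and PrE-T overlapped TBLC. The lower EPI-T value lay under the 0.144 CPM that 3 counts give in that library. Gata3 rose by 3.36 ± 0.62 log2 in PrE-T against EPI-T (adjusted p = 0.000133) and fell by 4.13 in EPI-T against TBLC (log2 -4.13 ± 0.61), while PrE-T against TBLC gave -0.78 ± 0.45 (adjusted p = 0.141; with library totals -1.10 and 0.0396).

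Cdx2, the caudal homeobox factor of trophectoderm, had 1.65 and 3.52 CPM in PrE-T, against 1.03 and 0.144 CPM in EPI-T and 0.195 and 0.608 CPM in TBLC. PrE-T libraries were the highest although the libraries of each group differed widely. It rose by 2.09 ± 0.76 log2 in PrE-T against EPI-T (adjusted p = 0.0218) and by 2.68 ± 0.79 in PrE-T against TBLC (adjusted p = 0.00697). Both calls depended on single libraries: without PrE-T replicate 2 the changes were 1.46 (adjusted p = 0.234) and 2.03 (adjusted p = 0.103), without EPI-T replicate 2 the first was 1.32 (adjusted p = 0.145), and without TBLC replicate 1 the second was 2.07 (adjusted p = 0.0806).

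Hand1, a factor of trophoblast giant cells and of extraembryonic mesoderm, had 0.524 and 0.331 CPM in PrE-T, against 0.905 and 0.335 CPM in EPI-T and 0.0389 and 0.0869 CPM in TBLC. The TBLC values lay under the 0.117 and 0.130 CPM that 3 counts give in those libraries. Both sorted groups lay above TBLC and overlapped each other. It rose by 3.23 ± 1.1 log2 in EPI-T against TBLC (adjusted p = 0.0181) and by 2.69 ± 1.1 in PrE-T against TBLC (adjusted p = 0.0474), and these calls were lost on leaving out any 1 of the libraries compared except EPI-T replicate 2, and with no filter on low counts (adjusted p = 0.0604 and 0.126). The call in PrE-T against TBLC was also lost with DESeq2 (adjusted p = 0.0753), library totals (adjusted p = 0.0783) and the replicate number as a block (adjusted p = 0.0819). Tfap2c, an AP-2 factor shared by trophoblast and germ cells, had 4.64 and 4.68 CPM in PrE-T, against 6.62 and 6.66 CPM in EPI-T and 6.97 and 6.04 CPM in TBLC. PrE-T was the lowest group, with -0.51 ± 0.23 against EPI-T (adjusted p = 0.058) and -0.49 ± 0.23 against TBLC (adjusted p = 0.0685). Library totals in place of TMM took both past the threshold (log2 -0.62 and -0.81, adjusted p = 0.0244 and 0.00478).

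Krt8, the type II keratin of simple epithelia, had 362 and 387 CPM in PrE-T, against 19.2 and 14.5 CPM in EPI-T and 91.4 and 93.4 CPM in TBLC. The 3 groups were far apart. It rose by 4.46 ± 0.094 log2 in PrE-T against EPI-T (adjusted p = 1.17e-16) and by 2.01 ± 0.079 in PrE-T against TBLC (adjusted p = 6.54e-13), and fell by 2.45 in EPI-T against TBLC (log2 -2.45 ± 0.093).

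Krt18, its type I partner, had 142 and 166 CPM in PrE-T, against 21.8 and 15.4 CPM in EPI-T and 27.3 and 35.1 CPM in TBLC. PrE-T was again the high group, and EPI-T and TBLC lay closer together than for Krt8. It rose by 3.04 ± 0.14 in PrE-T against EPI-T (adjusted p = 2.71e-12) and by 2.29 ± 0.13 in PrE-T against TBLC (adjusted p = 7.72e-11), and fell by 0.74 in EPI-T against TBLC (log2 -0.74 ± 0.14). The count ratio of Krt8 to Krt18 within a library, which no scaling touches, was 2.56 and 2.33 in PrE-T, against 0.881 and 0.944 in EPI-T and 3.35 and 2.66 in TBLC, so EPI-T had the lowest ratio.

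Krt19, a type I keratin that can also pair with KRT8, followed another order. It had 14.4 and 14.1 CPM in PrE-T, against 9.50 and 8.72 CPM in EPI-T and 20.2 and 16.4 CPM in TBLC. It rose by 0.64 ± 0.16 log2 in PrE-T against EPI-T (adjusted p = 0.00201) and fell by 1.01 in EPI-T against TBLC (log2 -1.01 ± 0.16). PrE-T against TBLC gave -0.37 ± 0.15 (adjusted p = 0.0408), and this call was lost without either PrE-T library or without TBLC replicate 1 (adjusted p = 0.109 to 0.352).

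**Figure D2:**
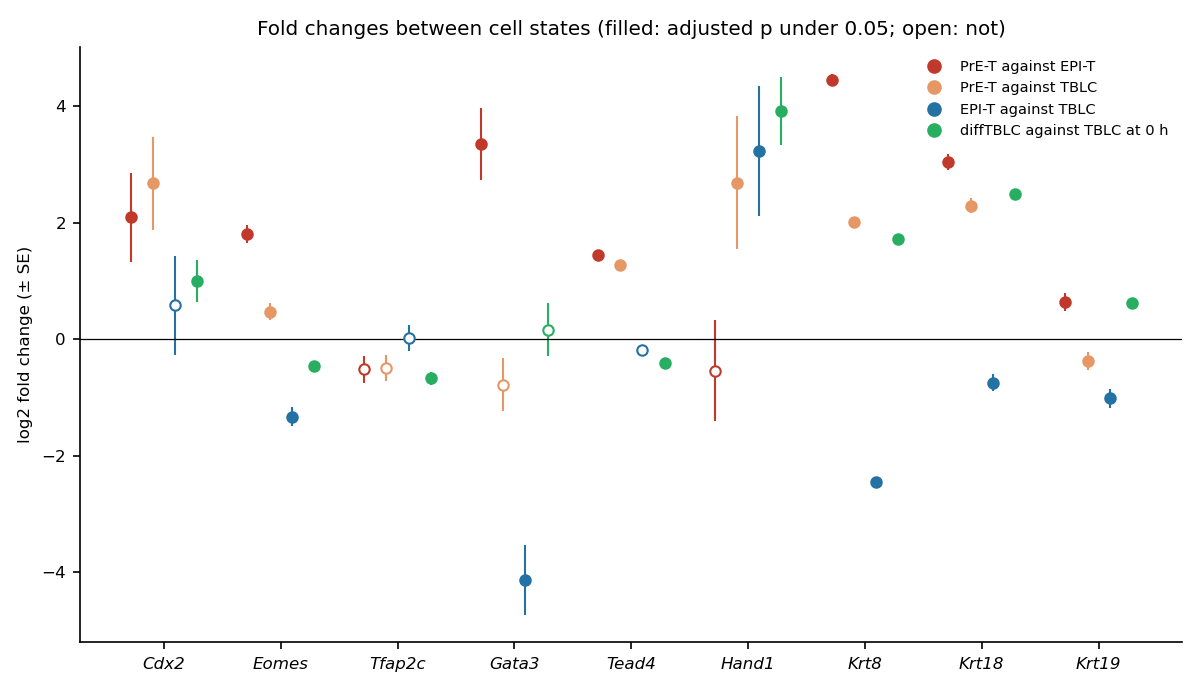
Log2 fold changes ± SE of 9 members in 4 comparisons of cell states; filled points have an adjusted p under 0.05 and open points do not. Krt8 and Krt18 are raised in both comparisons of PrE-T and in diffTBLC, whereas Eomes and Tead4 are raised in PrE-T against TBLC and lowered in diffTBLC against TBLC.

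In PrE-T against TBLC, 6 members rose and 1 fell of 9 tested (67.3% of all genes called, 33.5% higher and 33.8% lower), and in EPI-T against TBLC, 1 rose and 5 fell (64.9% of all genes called, 30.1% higher and 34.8% lower). The shares of members called were near those of all genes. The 3 comparisons share libraries, so their values stand side by side and are not separate evidence.

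Beside the members, the other genes of the lineage did not move as 1 group. For comparison, 35.8% of all genes were called higher and 32.8% lower in PrE-T against EPI-T, and 33.5% and 33.8% against TBLC. Of 23 further trophoblast stem and early trophoblast genes tested, 13 rose and 8 fell in PrE-T against EPI-T, with a median of 0.84: Fabp3, a fatty acid binding protein, rose by 6.62 ± 0.095 log2, Elf3 by 3.12 ± 0.069 and Furin, a proprotein convertase, by 3.04 ± 0.11, while Bmp4 fell by 2.99 (log2 -2.99 ± 0.072). Against TBLC, 6 of these 23 rose and 13 fell in PrE-T, with a median of -0.98. Of 8 genes of differentiated trophoblast, 3 rose and 2 fell in PrE-T against EPI-T, and 2 rose and 5 fell in PrE-T against TBLC. The 2 that rose against TBLC were Slc16a1 (2.81 ± 0.061 log2) and Slc16a3 (3.48 ± 0.098). Prl2c2, a prolactin family hormone of giant cells, was among the 5 that fell (log2 -4.15 ± 0.27). Against EPI-T, Prl2c2 rose in PrE-T by 3.43 ± 0.56. Of 8 other keratins, 2 rose and 3 fell in PrE-T against EPI-T, and 0 rose and 5 fell in PrE-T against TBLC, where Krt42 gave -2.58 ± 0.22 and Krt17 -1.45 ± 0.21.

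Genes of the TEAD and Hippo pathway leaned upward in PrE-T against EPI-T, 13 rising and 3 falling of 17 tested with a median of 0.79. Across all genes tested, 35.8% were called higher and 32.8% lower there. Amot, a junction protein that binds YAP1, rose by 5.65 ± 0.079 log2, the target genes Ccn1 by 3.60 ± 0.1 and Amotl2 by 2.24 ± 0.066, and the Tead4 paralog Tead2 by 1.13 ± 0.073. Against TBLC, 6 of the 17 rose and 6 fell in PrE-T, with Amot at 3.60 ± 0.067 and the target Ccn2 at -2.23 ± 0.1. The shares of all genes in that comparison were 33.5% higher and 33.8% lower. Of 18 desmosome and junction genes, 6 rose and 8 fell in PrE-T against EPI-T: Dsp, the desmosomal protein that anchors keratins, rose by 1.54 ± 0.065 and Dsc2, a desmosomal cadherin, by 4.57 ± 0.23, while Ppl, the plakin periplakin, fell by 2.85 (log2 -2.85 ± 0.18).

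The sorted cells carried the defining markers of their labels: in PrE-T all 10 primitive endoderm markers exceeded their EPI-T level and all 8 epiblast markers lay below it. These 10 include Pdgfra, which encodes CD140a. Cells were sorted on CD140, so the direction of Pdgfra was set by the sort and is no separate evidence. The summed primitive endoderm markers were at 16585 to 16637 CPM in PrE-T, against 191 to 194 CPM in EPI-T and 1378 to 1417 CPM in TBLC. Summed fibroblast or feeder markers, of which 9 of 10 rose in PrE-T against EPI-T, were at 184 to 188 CPM in PrE-T, against 40.2 to 43.7 CPM in EPI-T and 989 to 1030 CPM in TBLC, and their part in the members' values was not tested. Across all genes tested, 35.8% were called higher and 32.8% lower in PrE-T against EPI-T. Summed 2-cell-like markers were at 7.18 to 9.74 CPM in PrE-T, against 248 to 253 CPM in EPI-T and 116 to 117 CPM in TBLC. Vim, Des and Nes, intermediate filament genes of non-epithelial cells, summed to 809 to 834 CPM in PrE-T. Their sum was 369 to 378 CPM in EPI-T and 1232 to 1244 CPM in TBLC. Vim weighed most in it, with a mean log2 CPM of 9.54, against 5.37 for Nes and 4.81 for Des. In PrE-T against EPI-T Vim rose by 1.37 ± 0.049 log2 and Des by 1.11 ± 0.12, while Nes fell (log2 -1.62 ± 0.099). The part of these markers in the members' values was not tested either.

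Unsorted diffTBLC also had more Krt8, Krt18 and Krt19 than TBLC, but not more Eomes or Tead4. Before actinomycin D had acted (0 h), 5 of the 9 members tested rose and 3 fell in diffTBLC against TBLC, where 82.5% of all genes were called, 42.8% higher and 39.7% lower. Krt18 had 40.2 and 39.9 CPM in diffTBLC, against 6.15 and 8.13 CPM in TBLC, a rise of 2.49 ± 0.08 log2 (adjusted p = 1.76e-45). Krt8 had 102 and 98.9 CPM in diffTBLC, against 30.1 and 30.3 CPM in TBLC, a rise of 1.73 ± 0.047 (adjusted p = 1.04e-50). For both keratins the groups were far apart, and the Krt8 to Krt18 count ratio was 2.48 to 2.53 in diffTBLC, against 3.72 to 4.90 in TBLC. Krt19 had 38.2 and 38.0 CPM in diffTBLC, against 23.4 and 25.7 CPM in TBLC, a rise of 0.63 ± 0.059 (adjusted p = 1.53e-16), which is opposite in sign to the weak value in sorted PrE-T against TBLC.

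Among the factors, Hand1 had 1.30 and 0.923 CPM in diffTBLC, against 0.0427 and 0.0945 CPM in TBLC, a rise of 3.92 ± 0.58 log2 (adjusted p = 3.78e-09). These TBLC values lay under the 0.128 and 0.142 CPM that 3 counts give in the 2 libraries, so the size of the rise is poorly known. Cdx2 had 1.15 and 1.03 CPM in diffTBLC, against 0.427 and 0.662 CPM in TBLC, a rise of 1.00 ± 0.36 (adjusted p = 0.00932) that was lost without diffTBLC replicate 1 or TBLC replicate 1 (adjusted p = 0.0610 and 0.131). Both were higher in each diffTBLC library than in either TBLC library.

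Tfap2c, Eomes and Tead4 were the members that fell. Tfap2c had 6.51 and 5.74 CPM in diffTBLC, against 9.82 and 9.60 CPM in TBLC (log2 -0.67 ± 0.11, adjusted p = 1.23e-07). Eomes had 15.7 and 13.3 CPM in diffTBLC, against 20.8 and 18.8 CPM in TBLC (log2 -0.46 ± 0.08, adjusted p = 3.44e-07). Tead4 had 29.0 and 29.9 CPM in diffTBLC, against 37.3 and 40.8 CPM in TBLC (log2 -0.41 ± 0.061, adjusted p = 3.78e-09). In none of these 3 genes did the groups overlap. In this comparison 82.5% of all genes were called, and their overlap was not counted. Sorted PrE-T gave rises of Eomes and Tead4 against another pair of TBLC libraries in a separately normalised table, and the difference between the tables was not tested. Gata3 gave 0.17 ± 0.45 (adjusted p = 0.735).

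Of the TEAD and Hippo genes, 6 rose and 7 fell of 17 in diffTBLC against TBLC, with Amot at 3.94 ± 0.049, Tead2 at 1.62 ± 0.042 and Tead1 at -0.99 ± 0.031. Across all genes in this comparison, 42.8% were called higher and 39.7% lower. The junction genes leaned upward, 12 rising and 6 falling of 18, with Epcam, an epithelial adhesion molecule, at 1.94 ± 0.033 and the claudin Cldn6 at 2.92 ± 0.051. Of the trophoblast stem genes 9 rose and 10 fell of 22, and of the other keratins 2 rose and 4 fell of 8, with Krt42 at -1.28 ± 0.08 and Krt7 at -1.60 ± 0.34. The summed primitive endoderm markers were at 3541 to 3558 CPM in diffTBLC, against 325 to 331 CPM in TBLC, and the fibroblast or feeder markers at 165 to 167 CPM in diffTBLC, against 426 to 437 CPM in TBLC; their part in the members' values was not tested.

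Cultures of 1 name differed between tables, which were normalised separately, so the following levels are only set side by side. Krt8 had 91.4 and 93.4 CPM in the TBLC of the sorted-cell table, 30.1 and 30.3 CPM in TBLC at 0 h, 66.0 and 62.4 CPM in TBLC_Ctrl at 0 h and 31.2 and 34.2 CPM in TBLC2. Gata3 had 4.98 and 2.82 CPM, 0.427 and 0.662 CPM, 1.87 and 1.65 CPM, and 5.36 and 3.63 CPM in the same order. The spread of Krt8 among untreated TBLC cultures was thus of the size of its rise in diffTBLC, and the labels name 2 library kits and 2 sequencing platforms without saying which library used which.

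After 8 h in SLM, before transcription was stopped, 0 of 8 members tested had changed in TBLC_PlaB- against TBLC_Ctrl, where 1.25% of all genes were called, 0.78% higher and 0.475% lower. Krt8 had 67.3 and 61.7 CPM in TBLC_PlaB-, against 66.0 and 62.4 CPM in TBLC_Ctrl, and its log2 difference of 0.02 ± 0.047 had a 95% interval from -0.07 to 0.11. Over 1 to 3 h of actinomycin D, 0 members were higher and 2 lower (20.7% of all genes called, 12.8% higher and 7.84% lower). Krt19 had 25.9 and 24.2, 27.9 and 28.2, and 30.9 and 27.3 CPM at 1, 2 and 3 h in TBLC_PlaB-, against 35.4 and 36.9, 38.4 and 36.9, and 34.4 and 38.1 CPM in TBLC_Ctrl (log2 -0.43 ± 0.039, adjusted p = 1.16e-17), without overlap. Krt18 gave -0.24 ± 0.061 (adjusted p = 0.00195), with overlap over the 3 times and with the call lost without TBLC_PlaB- replicate 2 (adjusted p = 0.0555). Krt7, Krt17 and Krt42 were the 3 of 9 other keratins called over 1 to 3 h, all lower, with Krt7 at -0.52 ± 0.13 and the others at -0.10 ± 0.024 or nearer 0.

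The actinomycin D courses show how the members' share of the remaining RNA moved once new transcription was blocked. No spike-in is described, so a slope is the change per hour relative to the centre of all transcripts: a positive slope means slower loss than the centre, not gain of RNA. Tfap2c, Eomes and Gata3 fell and Krt8 rose in diffTBLC, TBLC, TBLC_PlaB- and TBLC_Ctrl alike. In diffTBLC, 3 members rose and 3 fell of 9 tested (59.4% of all genes called, 30.8% rising and 28.6% falling), and in TBLC 2 rose and 4 fell (65.2%, 37.2% rising and 28.1% falling). In TBLC_PlaB- 1 rose and 5 fell of 8 (65.2%, 31% rising and 34.2% falling), and in TBLC_Ctrl 2 rose and 5 fell (61.9%, 29.1% rising and 32.7% falling).

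**Figure D3:**
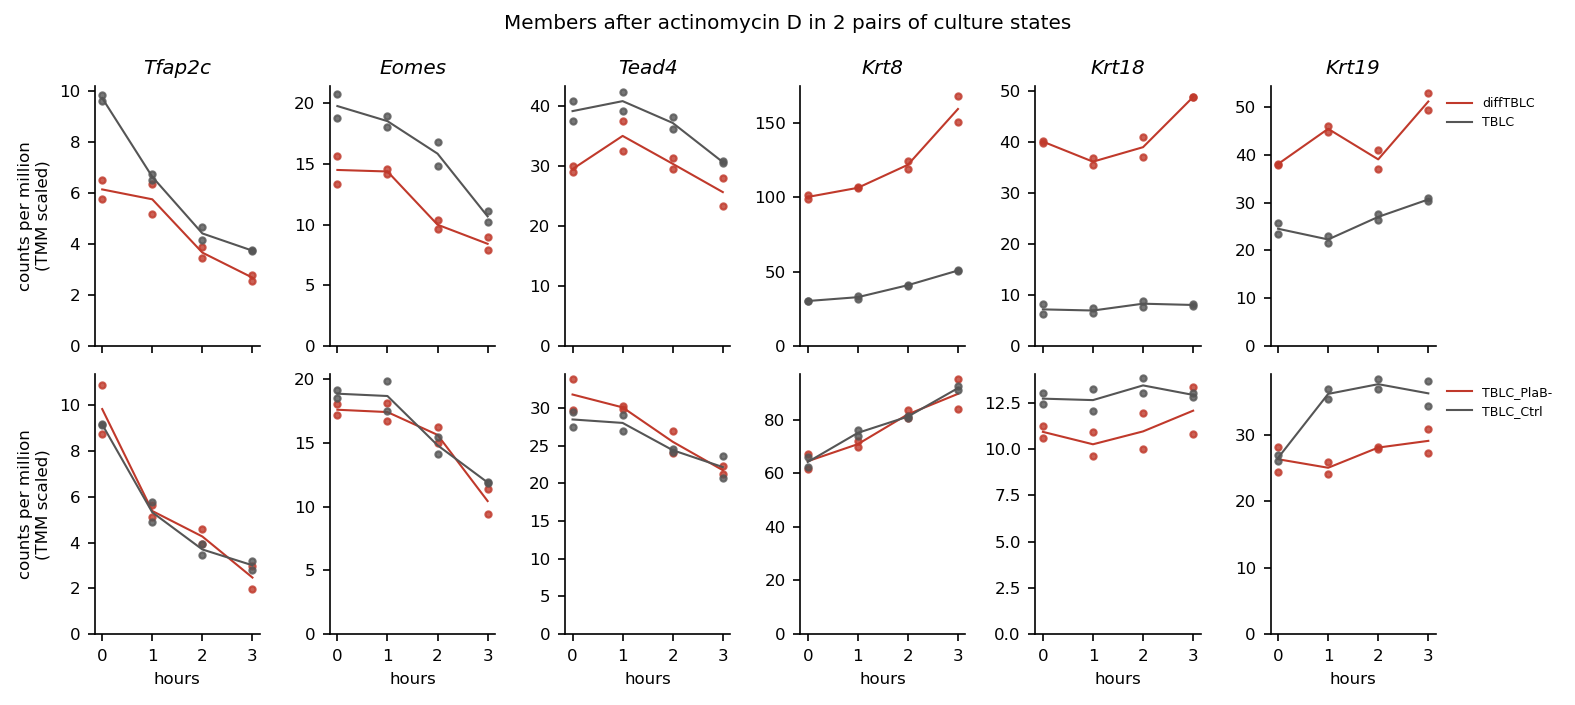
CPM (TMM scaled, linear axes from 0) of 6 members at 0, 1, 2 and 3 h of actinomycin D in diffTBLC and TBLC (upper row) and in TBLC_PlaB- and TBLC_Ctrl (lower row); points are the 2 libraries of a group and lines join their means. Tfap2c and Eomes fall and Krt8 rises in each of the 4 arms.

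Tfap2c had 6.51 and 5.74, 5.15 and 6.33, 3.44 and 3.86, and 2.56 and 2.78 CPM at 0, 1, 2 and 3 h in diffTBLC, against 9.82 and 9.60, 6.74 and 6.51, 4.65 and 4.15, and 3.70 and 3.76 CPM in TBLC. Its slope was -0.40 ± 0.055 log2 per hour in diffTBLC (adjusted p = 2.7e-06), against -0.49 ± 0.046 in TBLC (adjusted p = 1.16e-08). In TBLC_PlaB- it was -0.64 ± 0.06, against -0.56 ± 0.061 in TBLC_Ctrl, both called.

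Eomes had slopes of -0.28 ± 0.049 in diffTBLC, against -0.28 ± 0.043 in TBLC, and of -0.22 ± 0.043 in TBLC_PlaB-, against -0.22 ± 0.043 in TBLC_Ctrl, all 4 called. Gata3 fell too, by 0.52 per hour in diffTBLC (-0.52 ± 0.21) and by 0.65 in TBLC (-0.65 ± 0.21), and by about the same in TBLC_PlaB- (-0.80 ± 0.11) and TBLC_Ctrl (-0.79 ± 0.11). Tead4 moved less, at -0.07 ± 0.043 in diffTBLC (adjusted p = 0.152), -0.12 ± 0.04 in TBLC (adjusted p = 0.0135), -0.19 ± 0.027 in TBLC_PlaB- and -0.12 ± 0.028 in TBLC_Ctrl. Cdx2 fell in TBLC_PlaB- (-0.27 ± 0.12, adjusted p = 0.0488) and in TBLC_Ctrl (-0.60 ± 0.13, adjusted p = 0.000251).

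Krt8 had 102 and 98.9, 106 and 107, 119 and 125, and 168 and 151 CPM at 0, 1, 2 and 3 h in diffTBLC, against 30.1 and 30.3, 31.8 and 33.7, 41.1 and 40.6, and 51.3 and 50.2 CPM in TBLC. Its slope was 0.23 ± 0.025 in diffTBLC (adjusted p = 1.58e-07), against 0.26 ± 0.028 in TBLC (adjusted p = 8.54e-08), and 0.16 ± 0.019 in TBLC_PlaB-, against 0.17 ± 0.019 in TBLC_Ctrl. Krt19 rose at 0.11 ± 0.038 in diffTBLC, 0.12 ± 0.039 in TBLC and 0.14 ± 0.035 in TBLC_Ctrl, with 0.06 ± 0.036 in TBLC_PlaB- (adjusted p = 0.157). Krt18 rose in diffTBLC only weakly (0.10 ± 0.037, adjusted p = 0.0223) and gave 0.08 ± 0.052 in TBLC, 0.05 ± 0.038 in TBLC_PlaB- and 0.02 ± 0.037 in TBLC_Ctrl, none of these 3 called.

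The slopes themselves were not found to differ between culture states. Of 9 members, 0 were called in diffTBLC minus TBLC (8.21% of all genes called, 2.56% with a higher slope and 5.66% with a lower one), and of 8 members, 0 in TBLC_PlaB- minus TBLC_Ctrl (0.411%, 0.319% higher and 0.0922% lower). The differences of Krt8 were -0.03 ± 0.038 and -0.0048 ± 0.027, and of Tfap2c 0.09 ± 0.073 and -0.08 ± 0.089. In a test chosen after seeing the data, the difference between arms over 1 to 3 h was set against that at 0 h. It called 0 of 9 members in diffTBLC against TBLC (21.6% of all genes, 5.46% higher and 16.2% lower) and 1 of 8, Krt19, in TBLC_PlaB- against TBLC_Ctrl (4.31%, 2.77% higher and 1.54% lower).

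Without actinomycin D, few members differed between siRNA groups. In siVirma against siNC, 0 of 8 members rose and 2 fell (7.11% of all genes called, 3.48% higher and 3.63% lower). Tead4 had 29.4 and 29.6 CPM in siVirma, against 37.3 and 45.5 CPM in siNC (log2 -0.48 ± 0.14, adjusted p = 0.018). Krt8 had 41.4 and 35.9 CPM in siVirma, against 54.2 and 52.0 CPM in siNC (log2 -0.45 ± 0.13, adjusted p = 0.0105). Neither gene's groups overlapped, but DESeq2 called neither (adjusted p = 0.230 and 0.147), and between them the calls were lost on leaving out any 1 of the 4 libraries. Without siVirma replicate 2 both were lost, without siVirma replicate 1 or siNC replicate 2 Tead4, and without siNC replicate 1 Krt8. Amot fell by 0.67 and Ccn1 by 0.38 among 17 TEAD and Hippo genes (log2 -0.67 ± 0.057 and -0.38 ± 0.091), the only 2 called there, and 9 of 10 primitive endoderm markers fell, their sum being 4279 to 4285 CPM in siVirma, against 6782 to 6924 CPM in siNC; their part in the members' values was not tested. In the libraries labelled siMettl3, 0 of 8 members were called (0.865% of all genes, 0.412% higher and 0.453% lower), and the 95% interval of the Krt8 difference ran from -0.26 to 0.21.

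In the siRNA actinomycin D courses the members differed strongly between arms, but so did most genes, and the control arms held the libraries that stood apart. In siVirma against siNC1, 2 of 8 members rose and 3 fell at 0 h (60.3% of all genes called, 33.1% higher and 27.2% lower) and 5 rose and 1 fell over 1 to 3 h (71.5%, 35.5% higher and 36% lower). In the libraries labelled siIgf2bp3 against siNC2, 1 rose and 3 fell at 0 h (65.7%, 41.2% higher and 24.6% lower) and 5 rose and 1 fell over 1 to 3 h (70%, 32.9% higher and 37.1% lower).

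**Figure D4:**
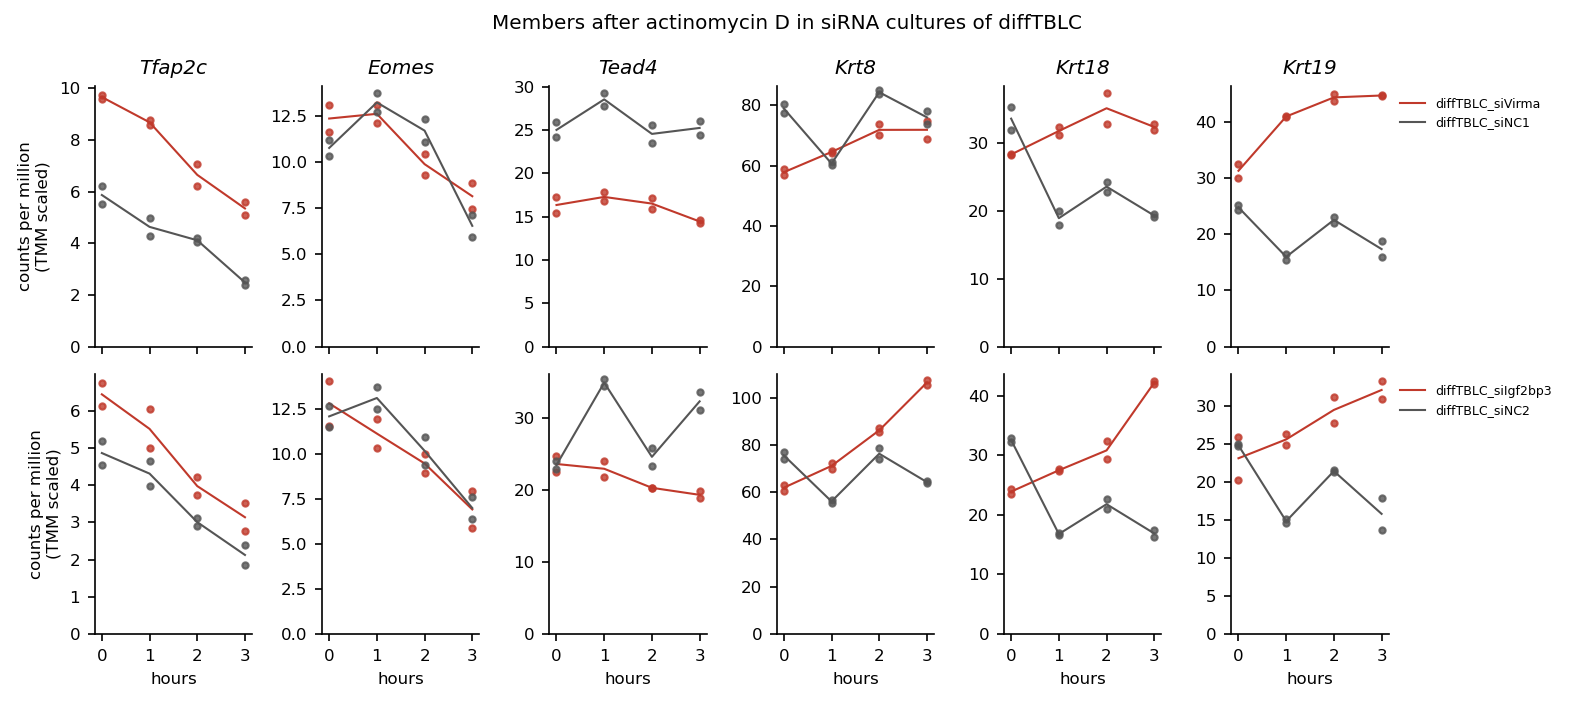
CPM (TMM scaled, linear axes from 0) of 6 members at 0, 1, 2 and 3 h of actinomycin D in siVirma and siNC1 (upper row) and in the libraries labelled siIgf2bp3 and siNC2 (lower row), all diffTBLC; points are libraries and lines join the means. In both control arms Krt18 and Krt19 drop between 0 and 1 h, whereas they do not in the siVirma and siIgf2bp3 arms.

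Tead4 was lower with siVirma at all times, with 17.3 and 15.4, 17.8 and 16.8, 17.2 and 15.8, and 14.2 and 14.7 CPM at 0, 1, 2 and 3 h in siVirma, against 25.9 and 24.2, 27.8 and 29.3, 23.5 and 25.6, and 26.0 and 24.5 CPM in siNC1. The log2 difference was -0.58 ± 0.081 at 0 h (adjusted p = 2.26e-07) and -0.68 ± 0.048 over 1 to 3 h (adjusted p = 2.55e-14), with no overlap. In the libraries labelled siIgf2bp3, Tead4 gave 0.13 ± 0.074 at 0 h (adjusted p = 0.133; with library totals 0.21 and 0.0146) and -0.51 ± 0.044 over 1 to 3 h (adjusted p = 9.75e-12). In those later hours it ranged from 18.9 to 24.1 CPM in siIgf2bp3, against 23.4 to 35.4 CPM in siNC2.

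Tfap2c was higher in siVirma and under the siIgf2bp3 label, at 0 h and over 1 to 3 h, although Igf2bp3 itself was higher under that label at 0 h. With siVirma it had 9.73 and 9.60 CPM at 0 h, against 6.23 and 5.51 CPM in siNC1 (log2 0.75 ± 0.12, adjusted p = 2.94e-06), and 0.92 ± 0.089 over 1 to 3 h (adjusted p = 6.53e-11). With the siIgf2bp3 label it had 6.75 and 6.13 CPM at 0 h, against 4.55 and 5.18 CPM in siNC2 (log2 0.53 ± 0.14, adjusted p = 0.00189), and 0.46 ± 0.11 over 1 to 3 h (adjusted p = 0.00057). The 0 h call of the siIgf2bp3 label was lost without siNC2 replicate 1 (adjusted p = 0.0712).

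Krt18 had 28.2 and 28.5, 32.4 and 31.3, 37.5 and 32.9, and 32.8 and 32.0 CPM at 0, 1, 2 and 3 h in siVirma, against 31.9 and 35.4, 17.9 and 19.99, 24.3 and 22.9, and 19.1 and 19.5 CPM in siNC1. It was lower with siVirma at 0 h (log2 -0.21 ± 0.071, adjusted p = 0.013) and higher over 1 to 3 h (0.71 ± 0.045, adjusted p = 2.16e-15). The change of sign came with the drop of the siNC1 libraries between 0 and 1 h. The 0 h call was lost without siVirma replicate 1 or siNC1 replicate 2 (adjusted p = 0.0561 and 0.180), and with library totals the value was -0.01.

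In the libraries labelled siIgf2bp3 Krt18 had 24.3 and 23.6, 27.3 and 27.7, 29.3 and 32.3, and 42.0 and 42.4 CPM at 0, 1, 2 and 3 h, against 32.3 and 32.8, 17.0 and 16.6, 22.6 and 21.0, and 17.5 and 16.3 CPM in siNC2. The difference was -0.33 ± 0.065 at 0 h (adjusted p = 6.26e-05) and 0.88 ± 0.041 over 1 to 3 h (adjusted p = 9.63e-18). Krt8 likewise gave -0.17 ± 0.048 at 0 h (adjusted p = 0.00226; with library totals -0.09 and 0.101) and 0.45 ± 0.028 over 1 to 3 h (adjusted p = 5.67e-15). At 3 h Krt8 had 105 and 108 CPM in siIgf2bp3, against 64.7 and 63.8 CPM in siNC2.

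With siVirma, Krt8 gave -0.41 ± 0.052 at 0 h (adjusted p = 4.18e-08) and -0.06 ± 0.03 over 1 to 3 h (adjusted p = 0.103). Krt19 rose with siVirma at 0 h (0.37 ± 0.07, adjusted p = 3.01e-05) and over 1 to 3 h (1.26 ± 0.042, adjusted p = 9.63e-23), and under the siIgf2bp3 label over 1 to 3 h (0.79 ± 0.058, adjusted p = 2.58e-13) but not at 0 h (0.00 ± 0.093). The 4 other keratins tested with siVirma all rose over 1 to 3 h, and under the siIgf2bp3 label 4 of 5 did, among them Krt17 at 0.95 ± 0.042 and 0.84 ± 0.039. Across all genes, 35.5% and 32.9% were called higher over those hours. The siNC1 and siNC2 arms compared with held the libraries that stood apart. At 0 h none of these keratins rose and 2 fell in each comparison, Krt42 (-0.68 ± 0.088) and Krt10 (-0.60 ± 0.18) with siVirma and Krt42 (-0.73 ± 0.094) and Krt17 (-0.47 ± 0.065) under the siIgf2bp3 label. The shares of all genes called lower at 0 h were 27.2% and 24.6%.

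Of the low-level factors, Cdx2 rose over 1 to 3 h with siVirma (0.79 ± 0.19, adjusted p = 0.000537) and under the siIgf2bp3 label (0.62 ± 0.21, adjusted p = 0.0102), where it had fallen at 0 h (-1.03 ± 0.29, adjusted p = 0.00284). That 0 h call was lost without siIgf2bp3 replicate 1 (adjusted p = 0.0596). Hand1 rose over 1 to 3 h with siVirma (1.03 ± 0.2, adjusted p = 2.88e-05). Summed primitive endoderm markers at 1 h were at 1180 to 1193 CPM in siVirma, against 3218 to 3279 CPM in siNC1, and at 2488 to 2497 CPM in siIgf2bp3, against 3758 to 3808 CPM in siNC2, and their part in the members' values was not tested.

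Straight-line slopes over 0 to 3 h were called different for 1 of 8 members in siVirma minus siNC1 (8.94% of all genes, 2.91% higher and 6.02% lower) and for 4 of 8 in siIgf2bp3 minus siNC2 (52.4%, 26.4% higher and 26% lower). Within arms, 0 of 8 members rose and 2 fell in siVirma (38.1% of all genes called, 15.9% rising and 22.2% falling), against 0 and 4 in siNC1 (45%, 23.2% rising and 21.8% falling), and 3 rose and 2 fell in siIgf2bp3 (53.5%, 27% rising and 26.6% falling), against 0 and 4 in siNC2 (44.5%, 21.8% rising and 22.8% falling). The difference between arms over 1 to 3 h set against that at 0 h was higher for 4 of 8 members and lower for 0 with siVirma (62.9% of all genes called, 29.2% higher and 33.7% lower), and higher for 4 and lower for 1 under the siIgf2bp3 label (73.2%, 30.1% higher and 43.1% lower). With siVirma the 1 member whose straight-line slope was called different was Cdx2 (0.49 ± 0.12 log2 per hour, adjusted p = 0.0374). Its call was lost on leaving out either replicate of either arm, and without the 0 h libraries no gene at all was called. Under the siIgf2bp3 label the 4 members with a different slope were Krt18 (0.54 ± 0.09), Krt8 (0.31 ± 0.061), Krt19 (0.33 ± 0.091) and Cdx2 (0.60 ± 0.19). The slope of Krt18 was 0.28 ± 0.063 in siIgf2bp3, against -0.27 ± 0.065 in siNC2. Without the 0 h libraries 0 of these 4 were called (Krt18 0.42, Krt8 0.31, Krt19 0.23 and Cdx2 0.25) and 0 genes in the whole table, and without either siIgf2bp3 replicate 0 of the 4 were called. Scaling on ribosomal protein genes moved the median slope difference of all genes by -0.62 and turned all 4 negative (Krt18 -0.09, Krt8 -0.30, Krt19 -0.29 and Cdx2 -0.04), so these directions hold relative to the centre of all genes only.

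In the immunoprecipitates Eomes was higher than in the inputs and Krt18 and Krt19 lower with both antibodies, while Krt8 and Tfap2c had opposite signs with the 2 antibodies. IP against input was read relative to the centre of all genes, of which 69.7% were called with anti-IGF2BP3 (35% higher and 34.8% lower) and 79% with anti-YTHDF2 (40.2% higher and 38.8% lower). With anti-IGF2BP3, 3 of 8 members were higher in the IP and 3 lower, and with anti-YTHDF2, 3 of 7 were higher and 4 lower.

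**Figure D5:**
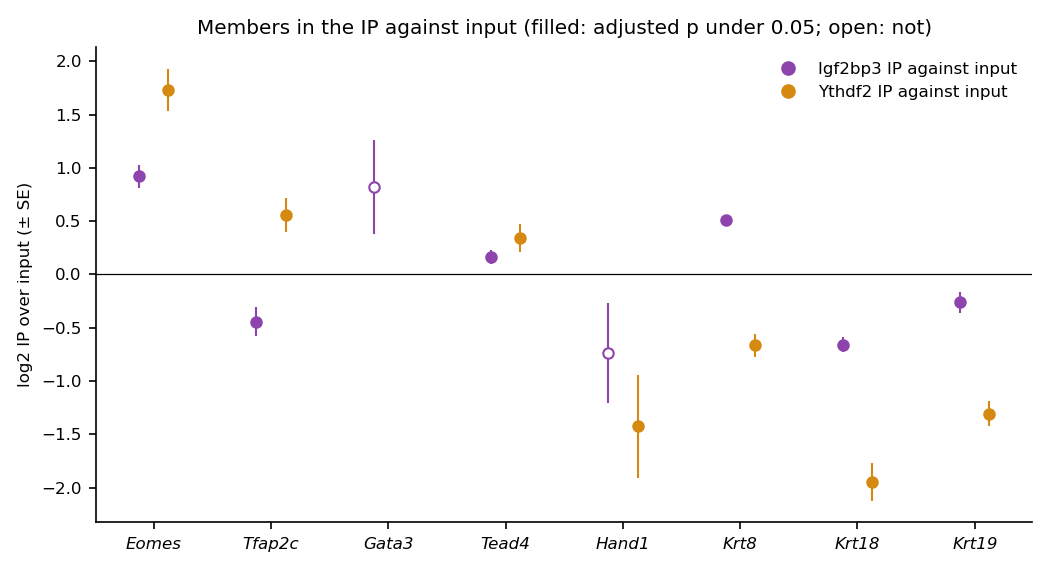
Log2 change of 8 members in the IP against its input ± SE, for anti-IGF2BP3 and anti-YTHDF2 in diffTBLC; filled points have an adjusted p under 0.05, open points do not, and a missing point was not tested. Eomes is higher and Krt18 and Krt19 are lower in both IPs, while Krt8 and Tfap2c have opposite signs.

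Eomes had the highest value of the members tested in both. It had 37.2 and 38.6 CPM in the IGF2BP3 IP, against 19.998 and 18.1 CPM in its input (log2 0.92 ± 0.11, adjusted p = 1.49e-16), and 28.2 and 28.1 CPM in the YTHDF2 IP, against 9.06 and 6.94 CPM in its input (1.73 ± 0.2, adjusted p = 2.95e-12). Tead4 was slightly higher in the IGF2BP3 IP (0.17 ± 0.065, adjusted p = 0.0177) and in the YTHDF2 IP (0.34 ± 0.13, adjusted p = 0.0172). DESeq2 called neither (adjusted p = 0.152 and 0.139), and the calls were lost without IGF2BP3 IP replicate 2, either IGF2BP3 input or YTHDF2 input replicate 1; with library totals the IGF2BP3 value was -0.03.

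Krt18 had 51.0 and 48.0 CPM in the IGF2BP3 IP, against 72.3 and 76.7 CPM in the input (log2 -0.66 ± 0.071, adjusted p = 1.33e-19), and 7.95 and 6.76 CPM in the YTHDF2 IP, against 27.6 and 25.5 CPM in the input (-1.94 ± 0.18, adjusted p = 8e-16). Krt8 had 199 and 200.1 CPM in the IGF2BP3 IP, against 135 and 133 CPM in the input (0.51 ± 0.047, adjusted p = 3.41e-26), and 41.4 and 39.9 CPM in the YTHDF2 IP, against 58.7 and 61.8 CPM in the input (-0.67 ± 0.11, adjusted p = 6.93e-08). The IP thus held more Krt8 per Krt18 than its input with both antibodies: the count ratio was 3.91 to 4.17 in the IGF2BP3 IP, against 1.73 to 1.87 in the input, and 5.20 to 5.90 in the YTHDF2 IP, against 2.13 to 2.43 in the input. Krt19 was lower in the YTHDF2 IP (-1.31 ± 0.12, adjusted p = 3.65e-16) and slightly in the IGF2BP3 IP (-0.26 ± 0.098, adjusted p = 0.012); the second call was lost without IP replicate 2 or input replicate 1 (adjusted p = 0.0524 and 0.300).

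Tfap2c was lower in the IGF2BP3 IP (-0.44 ± 0.14, adjusted p = 0.00223) and higher in the YTHDF2 IP (0.56 ± 0.16, adjusted p = 0.0015). The first call was lost without IP replicate 2 or input replicate 1 (adjusted p = 0.0947 and 0.131), and the second without input replicate 2 (adjusted p = 0.232). Hand1 was lower in the YTHDF2 IP (-1.42 ± 0.48, adjusted p = 0.0061), a call lost without IP replicate 2 or input replicate 1 (adjusted p = 0.143 and 0.161). DESeq2 did not call Krt19 or Tfap2c in the IGF2BP3 IP (adjusted p = 0.164 and 0.0882) or Hand1 in the YTHDF2 IP (adjusted p = 0.0928). With no filter on low counts, Krt19 in the IGF2BP3 IP was not called either (-0.19, adjusted p = 0.117). Cdx2 had 16 and 18 counts in the YTHDF2 IPs and 0 in both inputs, which allow up to 3 counts a library, and it was not tested. The antibodies' own tables were normalised separately, and the opposite signs of Krt8 and Tfap2c were not tested against each other.

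Across 14 groups that had no actinomycin D or were at 0 h, centred within each table, Krt8 had a Pearson r of 0.91 with Krt18, 0.71 with Eomes, 0.70 with Tead4 and 0.65 with Krt19. Krt18 had 0.57 with Tead4, 0.55 with Krt19 and 0.46 with Eomes, Eomes had 0.58 with Tead4 and 0.54 with Krt19, and Tead4 and Krt19 had -0.04. Of 9332 genes averaging 3 or more on the log2 CPM scale, those most like Krt8 included Hs3st1 and Serpinh1 (each r at least 0.99), those most like Krt18 were Folr1, Rhou and Rab3il1, those most like Krt19 Ndfip1, Gabarapl1 and Dusp3, those most like Tead4 Ppp1r15b, Slc7a1 and Ugcg, and those most like Eomes Slc35b4, Tlcd5 and Rab33b. The points share libraries, scaling and control groups within a table, and r describes these 14 groups only. The other 5 members were below this level.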

How the data were processed

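RNA was read out in 98 samples in 49 groups of 2, of which 86 had gene counts and 12, an m6A immunoprecipitation set, were not used here. The authors deposited whole-number counts per gene symbol in 9 tables. FastQC 0.12.1, Trim Galore, STAR 2.7.11b, Subread, DESeq2 and the mouse build mm39 are named per the submitters' processing notes, while counting settings and strand are not given in the sources used here. Columns of the 8 h SLM table named TBLC_S were read as TBLC_PlaB-, since all other columns there name TBLC_Ctrl. The members and gene lists were chosen with earlier results of these data known.

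Each table was fitted on all its libraries with edgeR 4.0.16 in R 4.3.3 (TMM scaling, filterByExpr, quasi-likelihood test, Benjamini-Hochberg adjustment, threshold 0.05), and every adjusted p in the text is from that test unless DESeq2 1.42.0 is named. Actinomycin D slopes came from lines over 0 to 3 h in each arm. The SE is the log2 change divided by the square root of F. The arm difference over 1 to 3 h minus that at 0 h was added after the data were seen. Library totals of 2483808 to 29471283 counts set the precision, a count of 0 allows up to 3, and such limits cover counting error only. The 43 replicate pairs held 0 identical pairs and differed by 1.11 to 10.6 chi-square per degree of freedom. Alternatives were other scalings (RLE, library totals, 77 ribosomal protein genes), no filter, DESeq2, a replicate block, fewer libraries and other time codings. Genes named are the 10 members, the targeted genes, the 3 genes of highest r with a member (1 result of this kind is not reported here), and up to 4 genes of lowest adjusted p from each list and comparison. The fits were tested on simulated data.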

Additional observations from a re-analysis of the deposited data

Results flagged for a closer look

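In 15 results the difference between arms of an actinomycin D course was itself different between times, by edgeR's quasi-likelihood test with Benjamini-Hochberg adjustment over all genes. A gene counts again where its straight-line slope also differed, and those values come from the same libraries. The comparison of the arm difference over 1 to 3 h with that at 0 h was chosen after seeing the data. In TBLC_PlaB- against TBLC_Ctrl it was called for Krt19 (log2 -0.43, adjusted p = 0.000116), where 4.31% of all genes were called.

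In siVirma against siNC1 it was called for Krt18 (0.92, adjusted p = 2.65e-11), Krt19 (0.88, adjusted p = 4.4e-11), Krt8 (0.36, adjusted p = 4.8e-06) and Cdx2 (1.01, adjusted p = 0.00595), with 62.9% of all genes called. In the libraries labelled siIgf2bp3 against siNC2 it was called for Krt18 (1.2, adjusted p = 1.09e-14), Krt8 (0.62, adjusted p = 1.97e-11), Krt19 (0.79, adjusted p = 1.81e-07), Cdx2 (1.65, adjusted p = 0.000154) and Tead4 (-0.64, adjusted p = 9.72e-08), with 73.2% called. All these values include the 0 h libraries of siNC1 or siNC2, and both control arms took large steps between 0 and 1 h. Those steps do not say which time stood apart. The part of the 0 h libraries in the values was not tested apart from leaving 0 h out of the slopes.

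Straight-line slopes differed, in log2 per hour, for Cdx2 with siVirma (0.49, adjusted p = 0.0374) and under the siIgf2bp3 label for Krt18 (0.54, adjusted p = 0.00209), Krt8 (0.31, adjusted p = 0.00217), Krt19 (0.33, adjusted p = 0.00881) and Cdx2 (0.6, adjusted p = 0.0154).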

How the results depend on the processing

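Of the counts of members called, 163 settings kept the count or changed it by a small factor, 23 lowered it by more and 5 raised it by more. A count has no sign that could reverse. Single members gave 1371 unchanged, 82 weaker, 26 stronger and 46 reversed values. The cause of these changes was not tested. DESeq2 called 0 members in siVirma against siNC and 3 in the IGF2BP3 IP. It also did not call Krt19 in PrE-T against TBLC (adjusted p = 0.0953) or Cdx2 in diffTBLC against TBLC (adjusted p = 0.0657). At 0 h it called neither Krt18 with siVirma (adjusted p = 0.0726) nor Tfap2c under the siIgf2bp3 label (adjusted p = 0.0664). The count for the siVirma slope difference was 2 with DESeq2, 0 with library totals, ribosomal scaling, no filter or without 0 h, and 4 with 3 h against 0 h or the mean of 1 to 3 h against 0 h; under these last settings that for TBLC_PlaB- was 1. Without 0 h the siIgf2bp3 slope count was 0. With the replicate number as a block, for which the labels state no shared culture and same-numbered libraries had a median r of -0.01 to 0.08 by table and highest r of 0.51 in the siVirma and 0.55 in the siIgf2bp3 table, the siVirma slope count was 0 and Hand1 in PrE-T against TBLC lost its call (log2 2.65, adjusted p = 0.0819); it changed no other call of a member. Leaving out single replicates gave 4 to 5 members in PrE-T against TBLC, 0 to 2 in siVirma against siNC, 1 to 2 in TBLC_PlaB- over 1 to 3 h, 0 to 0 for the siVirma slope, 0 to 4 for the siIgf2bp3 slope and 3 to 6 in the IGF2BP3 IP.

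Signs reversed as follows. Ribosomal scaling, which moved the median of all genes by -0.62 for siIgf2bp3 and -0.31 for siVirma, gave siIgf2bp3 slope differences of -0.55 for Eomes, -0.52 for Tfap2c, -0.035 for Cdx2, -0.45 for Hand1, -0.088 for Krt18, -0.29 for Krt19 and -0.30 for Krt8, and siVirma slope differences of -0.057 for Hand1, -0.039 for Krt18, -0.049 for Krt19, -0.23 for Krt8 and -0.22 for Tfap2c. Library totals gave -0.12 for Eomes and -0.065 for Tfap2c (siIgf2bp3 slope) and -0.032 for Tead4 (IGF2BP3 IP). Without 0 h the slope differences were 0.056 for Tead4 (siIgf2bp3), 0.14, -0.033, -0.030 and -0.11 for Eomes, Krt18, Krt19 and Krt8 (siVirma), 0.11 and 0.039 for Krt19 and Krt8 (TBLC_PlaB-) and -0.13 for Tfap2c (diffTBLC). The mean of 1 to 3 h gave -0.14 for Eomes and -0.036 for Tfap2c (siIgf2bp3) and 0.068 for Krt19 (diffTBLC). Krt19 under the siIgf2bp3 label at 0 h was -0.11 with no filter and -0.13 with only the libraries compared. Leaving out single replicates, ranges crossing 0 were -1.43 to 1.59 for Cdx2 (EPI-T against TBLC), -1.07 to 0.35 for Hand1 (PrE-T against EPI-T), -0.11 to 0.095, -0.047 to 0.082 and -0.057 to 0.26 for Krt19, Krt8 and Tfap2c (TBLC_PlaB- at 0 h), -0.16 to 0.010 for Eomes (TBLC_PlaB- over 1 to 3 h), -0.17 to 0.18 for Krt19 (siIgf2bp3 at 0 h), -0.13 to 0.015 for Eomes (siIgf2bp3 over 1 to 3 h), -0.74 to 0.11, -0.25 to 0.027 and -0.47 to 0.38 for Eomes, Tead4 and Tfap2c (siMettl3), -0.33 to 1.15 for Cdx2 (siVirma against siNC), -0.069 to 0.11 for Eomes (siVirma over 1 to 3 h), and, for slope differences, -0.035 to 0.058 and -0.041 to 0.045 for Krt19 and Krt8 (diffTBLC) and -0.038 to 0.15 for Tfap2c (siIgf2bp3). Low counts limit the precision of Cdx2, Gata3, Hand1 and Elf5.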
